A study of Mus musculus with 8 samples.

Results

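A set of 39 genes known as induced by neuronal activity was followed in the medial prefrontal cortex of mice after contextual fear conditioning. They are Npas4 and other transcription factors, kinases and signalling brakes, secreted and synaptic proteins, and stress-response proteins. The Fos, Jun, Egr, Nr4a, Dusp, Arc, Homer and Bdnf genes were left out of this set. The genes were named in a list and looked up by symbol in the deposited expression table. All 39 of 39 were among its 22609 gene rows, and all 39 passed the minimum mean value of 1 over the 8 samples. None of them passed the test after conditioning: limma's adjusted p was 0.9998 for every one.

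The study used B6.SJL mice aged 3 months and took tissue 1 h after training. The 4 conditioned samples came from mice left for 3 min in a training chamber before 2 shocks to the feet, each of 0.8 mA and 2 s, with 30 s between them and a further 15 s in the chamber. The 4 context controls were handled in the same way without shocks, so both groups had explored the chamber and no untouched group was part of this comparison. The tissue was the anterior cingulate part of the medial prefrontal cortex from both hemispheres, and each sample was total RNA of whole tissue. Of the listed cortical markers, 11 of 11 deep-layer and 8 of 9 upper-layer neuron genes were in the table and passed the minimum.

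A neuron that fires lets calcium in, and kinases carry that signal to the nucleus, where the factors CREB and SRF switch on genes without new protein synthesis. The first wave consists largely of transcription factors and of proteins that damp the same signalling again. A later wave holds effectors that act at the synapse, such as secreted pentraxins, neuropeptide precursors and the enzyme that cuts them. In cortex many transcripts of the first wave are short-lived, so their level at a given time depends on when activity took place.

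CREB binds a short palindrome, the cAMP response element or CRE. The stretches below show it where it was found among the promoters searched. RefSeq promoter windows (build GRCm38.p6, 250 bases before to 50 bases after a transcription start) were held for 30 of the 39 genes. Klf10, Crem, Ier2, Sik1, Trib1, Spry4, Gem, Nptx2 and Vgf had no window, so whether they carry a CRE was not searched. The full palindrome TGACGTCA stood in a window of 7 of these 30 (23.3%), against 549 of all 27025 genes with a window (2.03%). In the motif counts, all genes means every gene with a window, whether or not its expression was tested here. Each line gives 30 bases, 5′ to 3′ on the gene's strand, with the CRE in capitals.
Btg2: gttcccaataaTGACGTCAgtgagcgatga
Maff: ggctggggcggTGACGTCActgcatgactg
Plk2: agcgctcgccgTGACGTCAcgaggccccgc
Errfi1: gctgcgggcgtTGACGTCAcgttgtcgctc
Arl4d: gccgcgtcgtgTGACGTCAcgagagggttt
Scg2: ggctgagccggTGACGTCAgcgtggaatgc
Pcsk1: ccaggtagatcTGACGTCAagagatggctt

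The stretches lie at chr1:134079303-134079332 (minus strand) for Btg2, chr15:79347480-79347509 (plus) for Maff, chr13:110394971-110395000 (plus) for Plk2, chr4:150855008-150855037 (plus) for Errfi1, chr11:101665504-101665533 (plus) for Arl4d, chr1:79440076-79440105 (minus) for Scg2 and chr13:75089768-75089797 (plus) for Pcsk1. The first base of the element was 166 bases before the start in Btg2 and between 26 and 78 bases before it in the other 6 genes. The shorter core TGACG, which every full CRE contains, was found on either strand in 21 of the 30 genes (70%), against 23% of all genes. Npas4 has no full palindrome in its window but 2 copies of the core, shown in capitals with their surroundings (chr19:4990128-4990157, minus strand; the first core begins 179 bases before the start).
Npas4: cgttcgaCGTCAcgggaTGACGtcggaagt

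The AP-1 site TGANTCA was present in 1 of the 30 genes (Csrnp1) against 8.97% of all genes, and the Egr site GNGTGGGCG in 1 (Maff) against 3.35%. The CArG box, which SRF binds, was present in 1 of the 30 (Srf itself) against 1.81% of all genes. Both strands were searched, a gene with several starts was counted once if any window held the motif, and a match describes the letters only.

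The set as a whole was divided evenly between the directions. Here and below a gene is counted as higher or lower by its mean of log2 values. Of the 39 genes, 20 had a higher and 19 a lower mean log2 value after conditioning (51.3% higher), beside 51.8% higher among all 14704 genes tested. The median log2 change was 0.0024 for the 39 and 0.0095 for all tested genes. At an adjusted p under 0.05 limma called 0% of all tested genes. At an unadjusted p under 0.05 it took 2.7% of all tested genes and 1 of the 39, Btg2. At the same limit edgeR and DESeq2 each took 2 of the 39, Btg2 and Trib1. Of all 14704 genes they took 385 (edgeR) and 340 (DESeq2), and both also called none after adjustment. Log2 changes ran from -0.61 in Npas4 to 0.57 in Plk3.

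**Figure D1:**
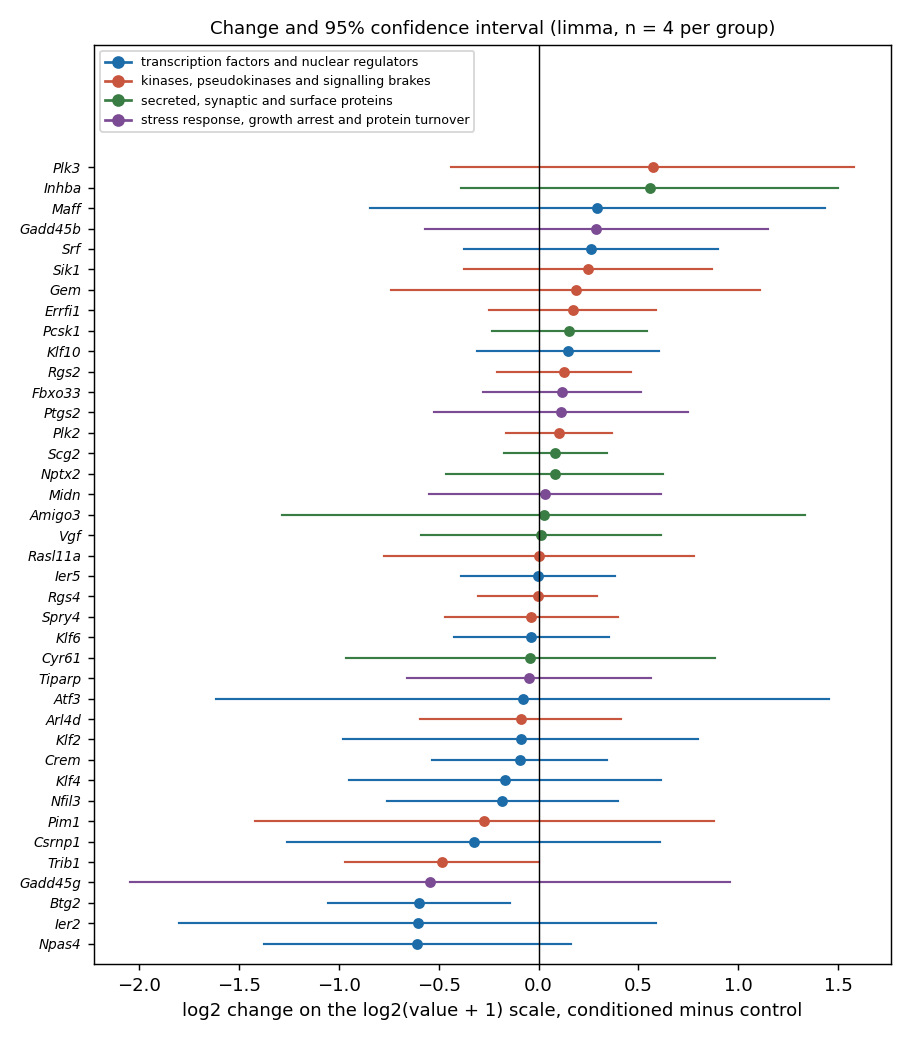
Log2 change after conditioning (x axis, conditioned minus control on the log2(value + 1) scale) for each of the 39 genes, with bars for limma's 95% confidence interval, n = 4 per group, coloured by role. The intervals of 38 genes cross 0, and that of Btg2 runs from -1.05 to -0.15.

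Transcription factors and nuclear regulators had lower mean log2 values in 11 of 14 genes and higher ones in 3, with a median log2 change of -0.09. That is 21.4% higher, beside 51.8% of all tested genes. Without control replicate 3, the log2 changes of Atf3, Klf2, Klf4 and Ier5 turned positive (0.23, 0.21, 0.025 and 0.044). Btg2, an antiproliferative coregulator of transcription, had the smallest p of the 39. Its scaled read counts (gene reads divided by a factor for each sample) were 96.3, 118, 146 and 109 in control replicates 1 to 4 and 82.9, 87.5, 64.2 and 72.9 in conditioned replicates 1 to 4. Every conditioned sample lay below every control. The group means were 118 ± 21.1 and 76.9 ± 10.4 (SD, n = 4), a log2 change of -0.60 with a 95% interval of -1.05 to -0.15 and an adjusted p of 0.9998 in limma (unadjusted p = 0.0137 in limma).

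Btg2 was the only one of the 39 whose groups did not overlap. That is 1 of 39 (2.56%), where 1.92% of all tested genes had groups without overlap in either direction and 0.939% had every conditioned sample below every control. The 250 bases before its start, with the CRE in capitals, read as follows (chr1:134079156-134079405, minus strand).
Btg2: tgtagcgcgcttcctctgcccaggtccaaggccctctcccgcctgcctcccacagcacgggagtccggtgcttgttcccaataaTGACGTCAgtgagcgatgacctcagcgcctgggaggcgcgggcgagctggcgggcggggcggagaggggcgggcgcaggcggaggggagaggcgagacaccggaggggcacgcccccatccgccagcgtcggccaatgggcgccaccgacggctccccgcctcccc
Without control replicate 3, its highest sample, the log2 change of Btg2 was -0.49 with an unadjusted p of 0.0519 in limma.

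Npas4, a factor found largely in neurons that follows calcium entry and organises inhibitory synapses, was 112, 105, 113 and 91.7 in controls. After conditioning it was 69.0, 102, 108 and 28.8. Conditioned replicates 2 and 3 lay inside the control range, and replicates 1 and 4 below it. The log2 change was -0.61 (95% interval -1.38 to 0.16, limma), and -0.20 without conditioned replicate 4.

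Srf encodes the serum response factor that binds the CArG box. It was 201, 191, 121 and 121 in controls and 231, 293, 152 and 113 after conditioning. In both groups replicates 1 and 2 were above replicates 3 and 4, and the groups overlapped (log2 change 0.26, 95% interval -0.38 to 0.90, and 0.040 without conditioned replicate 2). Crem, whose gene yields both activators and the repressor ICER of CRE-driven transcription, was 146, 105, 157 and 124 in controls and 112, 105, 129.8 and 151 after conditioning. Counts were per gene, so ICER and the other Crem transcripts were not told apart, and the change was -0.09 on the log2 scale (-0.53 to 0.34).

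Maff, a small Maf factor with a CRE, stood near the floor of detection at 11.6, 4.03, 8.07 and 3.22 in controls and 8.29, 14.6, 6.83 and 3.84 after conditioning. Csrnp1, a nuclear protein first described as induced by axin, was 42.4, 57.7, 39.3 and 38.6 in controls and 75.95, 50.4, 24.6 and 15.4 after conditioning. The conditioned samples of Csrnp1 thus spread to both sides of the controls, with replicate 1 above them all and replicates 3 and 4 below them all. Ier2, an immediate early nuclear protein, was 19.9, 13.4, 17.1 and 17.7 in controls and 13.8, 30.5, 9.56 and 2.88 after conditioning, again with 1 conditioned sample above and 2 below every control. Its log2 change of -0.61 was -1.08 without conditioned replicate 2 and -0.072 without conditioned replicate 4.

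The other regulators of transcription are given by group means (control first, SD, n = 4). The zinc finger factors of the Klf family, which control growth and, in vessels, endothelial quiescence, were 32.6 ± 17.8 and 27.5 ± 5.93 for Klf2, 48.6 ± 17.8 and 43.5 ± 19.9 for Klf4, 404 ± 57.2 and 398 ± 87.7 for Klf6, and 331 ± 60.4 and 371 ± 91.3 for Klf10. All 4 differences were smaller than the SD of the controls. The stress factor Atf3 was 7.82 ± 5.14 and 8.78 ± 10.2, with 23.9 in conditioned replicate 2 and at most 5.76 in the other conditioned samples. Its mean of log2 values was lower after conditioning (log2 change -0.08), while its mean of linear values was higher. Nfil3, a repressor linked to the circadian clock, was 66.9 ± 12.5 and 60.2 ± 17.6, and Ier5, a partner of heat shock factor, 350.0 ± 60.2 and 349 ± 58.6.

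Among the 12 kinases, pseudokinases and signalling brakes, 7 were higher and 5 lower, with a median log2 change of 0.05. Trib1, a pseudokinase that steers proteins to degradation, had the second smallest p of the 39. It was 213, 188, 327 and 291 in controls and 238, 189.7, 138 and 160.2 after conditioning. Conditioned replicates 3 and 4 were below every control, while replicates 1 and 2 were inside the control range. The log2 change was -0.48 (95% interval -0.97 to 0.0036, adjusted p = 0.9998 in limma).

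Plk2 and Plk3 are polo-like kinases that respond to stress and activity. Plk2, which loosens overactive synapses and carries a CRE, was 852, 819, 838 and 974 in controls and 919.7, 921, 954 and 937 after conditioning. The 4 conditioned samples lay close together, above 3 of the 4 controls and below the highest (log2 change 0.10, 95% interval -0.16 to 0.37). Plk3 was 38.2, 28.2, 25.2 and 11.3 in controls and 64.9, 51.7, 27.3 and 17.3 after conditioning. Each conditioned sample of Plk3 was above the control of the same number, yet the groups overlapped (log2 change 0.57, -0.44 to 1.58). It was 0.24 without control replicate 4, 0.29 without conditioned replicate 1 and 0.91 without conditioned replicate 4. An antisense neighbour, Tctex1d4, shares exon sequence with Plk3, and whether the counting used strand is unstated.

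Sik1, a salt-inducible kinase that restrains CREB coactivators, was 80.6, 55.1, 90.8 and 67.6 in controls and 108, 119, 83.4 and 50.8 after conditioning. Conditioned replicates 1 and 2 were above every control and replicate 4 below every control. Errfi1, an inhibitor of the EGF receptor with a CRE, was 195, 154, 268 and 217 in controls and 213, 216, 220.0 and 279 after conditioning. Its conditioned replicate 4 stood apart from 3 nearly equal samples (log2 change 0.17, 95% interval -0.25 to 0.59, and 0.036 without control replicate 2).

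Rgs2 and Rgs4, which speed the shut-off of G proteins, belonged to the most abundant transcripts of the set. Rgs2 was 329, 302, 343 and 447 in controls and 376, 374, 383 and 404 after conditioning. Rgs4 was 2158, 2098, 2407 and 2926 in controls and 2216, 2482, 2315 and 2472 after conditioning. For both, the conditioned samples lay inside the control range, and the log2 changes were 0.13 (95% interval -0.21 to 0.46) and -0.0045 (-0.30 to 0.29).

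The small GTPase Arl4d, whose promoter holds a CRE, was 78.9, 80.6, 112 and 91.7 in controls and 102, 106, 69.7 and 67.2 after conditioning, so its conditioned replicates 3 and 4 were under all controls. By group means (control first, SD, n = 4), the growth factor signalling inhibitor Spry4 was 136 ± 27.6 and 130.4 ± 12.4, and the GTPase Gem, which limits calcium channels at the membrane, 22.1 ± 13.7 and 23.7 ± 8.85. The kinase gene Pim1 was 11.8 ± 6.22 and 10.1 ± 6.92, and the Ras-like Rasl11a 20.4 ± 4.91 and 20.7 ± 6.68. None of these 4 differed by more than the SD of its controls.

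Secreted, synaptic and surface proteins were higher in 6 of 7 genes, beside 51.8% of all tested genes. Their median log2 change was 0.08, and none passed the threshold. Among the 6, Vgf (0.01) and Amigo3 (0.025) changed little. Vgf turned to -0.0013 with median-of-ratios scaling, and Amigo3 to -0.31 without control replicate 3. Nptx2, a pentraxin that gathers AMPA receptors on interneurons, was 276, 228, 243 and 293 in controls and 367, 405, 219 and 173 after conditioning. Vgf, the precursor of several secreted neuropeptides, was 316, 411, 293 and 343 in controls and 499, 507, 273 and 195 after conditioning. In both genes conditioned replicates 1 and 2 were above every control and replicates 3 and 4 below every control. Their log2 changes were 0.08 (95% interval -0.46 to 0.63) and 0.01 (-0.59 to 0.61).

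Scg2, a granin stored in dense-core vesicles, was 969, 1009.9, 1019 and 972 in controls and 1117, 1004, 1095 and 999 after conditioning. Pcsk1, the convertase that cuts such precursors, was 259, 229.7, 288 and 322 in controls and 297, 245, 298 and 390.5 after conditioning. Both carry a CRE, while the promoters of Vgf and Nptx2 were not searched for lack of a window. Neither Scg2 nor Pcsk1 showed the opposite shifts seen in Vgf and Nptx2. Transcript GC content was 46.8% in Scg2 and 40.6% in Pcsk1, but 64.1% in Vgf and 58.3% in Nptx2. The part of a CRE or of GC content in these shifts was not tested. Each conditioned sample of Pcsk1 was above the control of the same number, but the differences were small (log2 change 0.15, 95% interval -0.23 to 0.54), and that of Scg2 was 0.08 (-0.17 to 0.34).

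Inhba, the activin subunit gene, was low at 14.1, 5.37, 13.1 and 11.3 in controls and 17.95, 26.5, 10.9 and 11.5 after conditioning. Conditioned replicates 1 and 2 were above every control, while the other two were inside the control range (log2 change 0.56, 95% interval -0.39 to 1.5). It was 0.28 without control replicate 2 and 0.32 without conditioned replicate 2. The matrix protein gene Cyr61, now named Ccn1, was 38.5 ± 24.4 in controls and 33.3 ± 9.40 after conditioning (SD, n = 4). The adhesion protein gene Amigo3 was the scarcest by reads, with 6.03 ± 4.07 and 6.17 ± 4.55.

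**Figure D2:**
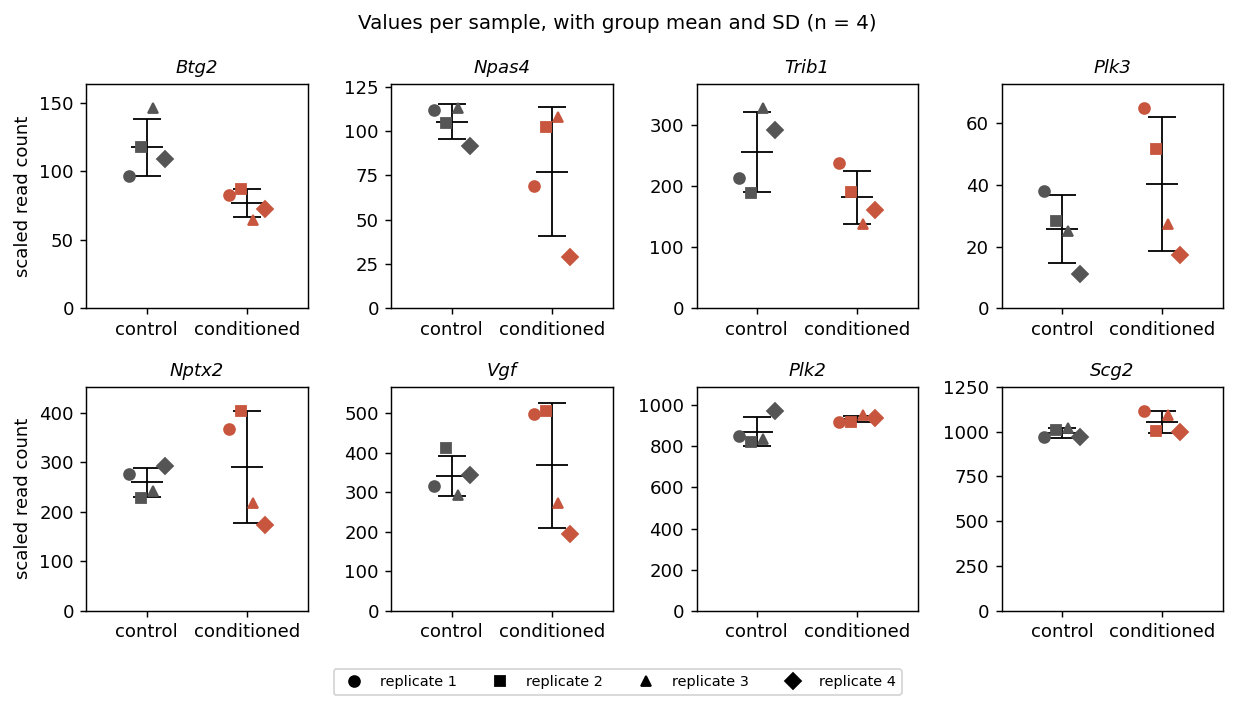
Scaled read counts (y axis, from 0) of 8 genes in each control and conditioned sample, with marker shapes for replicate numbers and black lines for the group mean and SD (n = 4). Btg2 separates the groups, the conditioned samples of Nptx2 and Vgf lie on both sides of the controls, and those of Plk2 lie between 919.7 and 954.

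The genes of stress response, growth arrest and protein turnover were higher in 4 of 6, with a median log2 change of 0.07. Gadd45b, a growth arrest protein implicated in active DNA demethylation in neurons, was 37.4, 24.2, 58.5 and 20.9 in controls and 44.2, 70.3, 31.4 and 25.9 after conditioning. Only conditioned replicate 2 was outside the control range (log2 change 0.29, 95% interval -0.57 to 1.15), and without it the change was 0.023. Its relative Gadd45g was 14.1, 20.1, 10.1 and 6.44 in controls and 15.2, 22.5, 6.83 and 0.96 after conditioning. That lowest value of Gadd45g stood for a single read, and the interval of its change ran from -2.04 to 0.96.

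Ptgs2, the inducible cyclooxygenase, which cortical neurons express, was 198, 122, 311 and 245 in controls and 149, 249, 208 and 326 after conditioning. The groups overlapped over nearly their whole range (log2 change 0.11, 95% interval -0.52 to 0.75). By group means (control first, SD, n = 4), the ADP-ribosyltransferase gene Tiparp was 201 ± 96.3 and 184 ± 42.2, with 341 in control replicate 3 and at most 187 in the other controls. The ubiquitin ligase component gene Fbxo33 was 412 ± 75.4 and 446 ± 81.7. Midn, whose product carries short-lived nuclear proteins to the proteasome, was 222 ± 37.4 and 239.8 ± 102.

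The precision differed widely among the 39. The 95% interval of limma reached between 0.26 and 1.54 on the log2 scale to either side, with a median of 0.61. For 26 of the 39 genes the whole interval lay within a 2-fold change in either direction. It was narrowest for Scg2 (0.887 to 1.27 times the control level on the log2(value + 1) scale) and widest for Atf3 (0.326 to 2.74 times), which had a mean of 7.12 reads per sample.

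Levels can be compared between genes only per length, and the deposited values carry no length correction. Divided by the longest GENCODE vM21 transcript of each gene, the mean over the 8 samples was highest for Rgs4, at 811 scaled reads per kb, followed by Scg2 (407) and Plk2 (322). Vgf (125), Rgs2 (122), Fbxo33 (116) and Klf10 (115) came next. The lowest were Inhba at 2.17, Amigo3 at 2.40, Maff at 3.86, Pim1 at 4.06 and Atf3 at 4.18. The transcript models used for counting are unstated, so this order is approximate.

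Across samples, many of the genes deviated together, and they did so within each group. In conditioned replicate 2, 31 of the 39 were above their own mean over the 8 samples, and 12 had their highest value there. Conditioned replicate 1 had 25 above, but conditioned replicates 3 and 4 had 14 and 12. Among controls the counts were 23, 10, 27 and 23 in replicates 1 to 4. Control replicate 2 held the lowest value of 15 genes and conditioned replicate 4 that of 11. In control replicate 2, 0 of the 12 kinases and signalling brakes were above their mean.

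**Figure D3:**
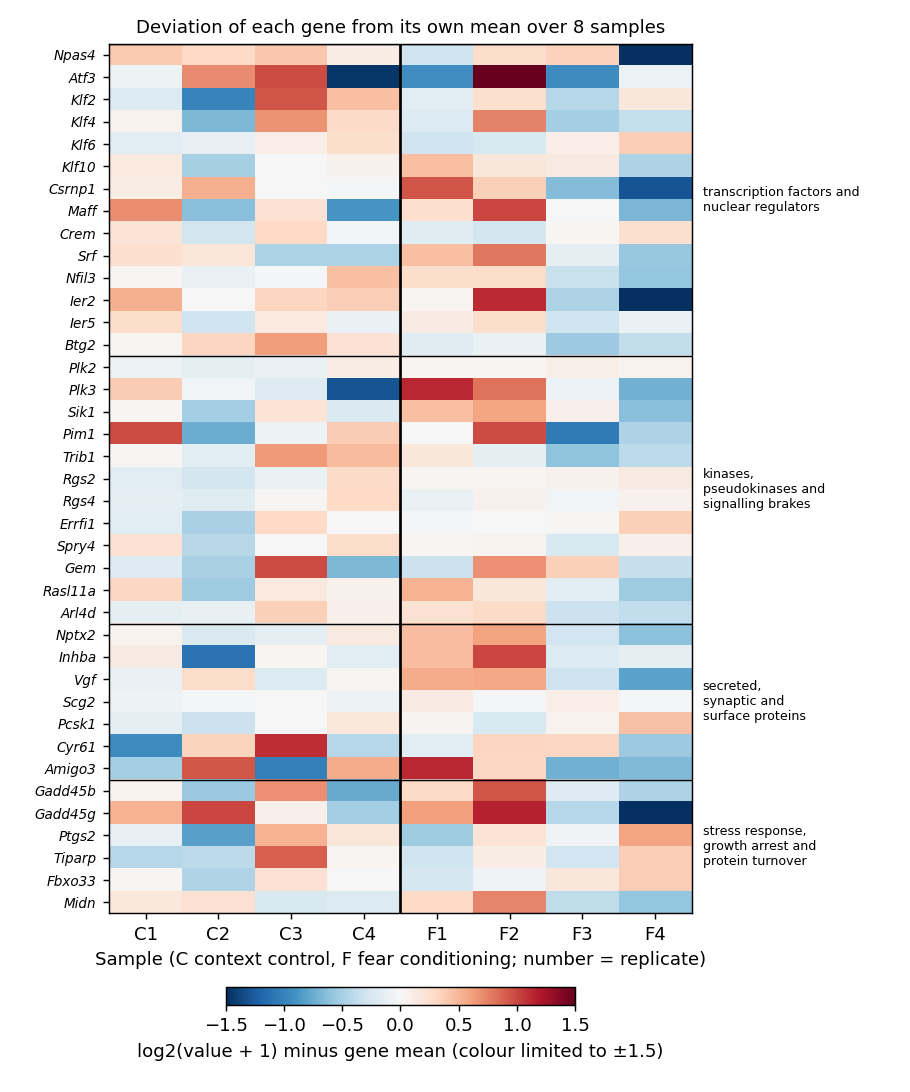
Deviation of each of the 39 genes (rows, by role) from its own mean over the 8 samples (columns, C for context control and F for fear conditioning), in log2 units, with red above and blue below the mean. Conditioned replicate 2 is red for 31 genes, and conditioned replicate 4 is blue for 27.

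Compared with the control of the same replicate number, the conditioned sample was higher in 25 of the 39 genes for number 1, in 32 for number 2, in 9 for number 3 and in 15 for number 4. The median log2 differences were 0.13, 0.48, -0.28 and -0.19. Over all tested genes the share that was higher stayed between 48.8% and 51.5% in these 4 pairs. Only Plk3 and Pcsk1 (higher) and Npas4 and Btg2 (lower) had the same direction in all 4 pairs. That is 4 of 39 (10.3%), beside 11% of all tested genes. With the replicate number as a block, limma's unadjusted p was 0.0469 for Npas4 and 0.0157 for Btg2, and the adjusted p was 0.997 for both. In that fit 594 of all 14704 tested genes had an unadjusted p under 0.05. A shared number is not shown to tie samples, as differently numbered samples correlated as strongly.

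Transcript GC content ran from 40.0% in Ptgs2 to 64.4% in Srf, with a median of 52.7%. The 20 genes at or above that median had median deviations of 0.27, 0.60, -0.32 and -0.60 in conditioned replicates 1 to 4. The 19 genes of lower GC content had -0.031, 0.054, 0.018 and 0.060. In control replicates 1 to 4 the medians were 0.051, -0.071, 0.14 and 0.044 for the genes of higher GC content and -0.076, -0.32, 0.14 and 0.064 for those of lower GC content. The conditioned samples thus spread more in the genes of higher GC content, and the controls more in those of lower GC content. In conditioned replicate 2, 19 of the 20 genes of higher GC content were above their mean, and in conditioned replicate 4 it was 1 of 20, Klf2.

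**Figure D4:**
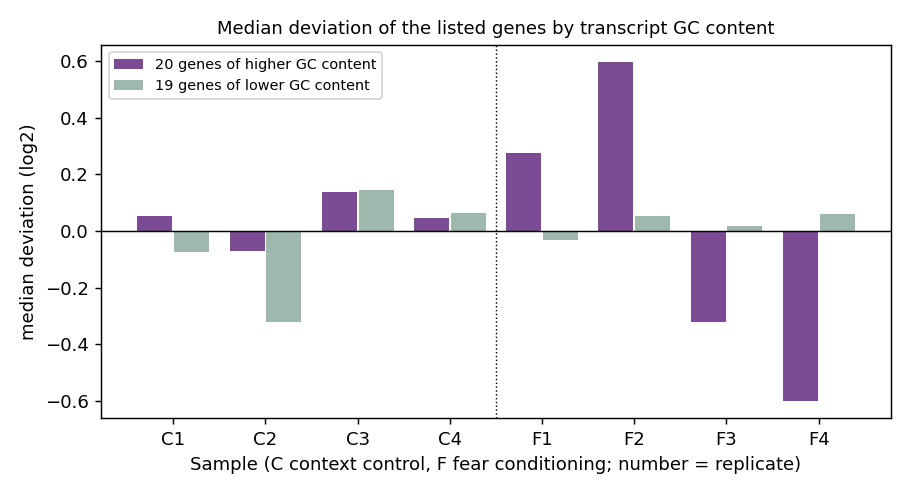
Median deviation from the gene mean (y axis, log2) in each sample (C context control, F fear conditioning) for the 20 genes of higher and the 19 genes of lower transcript GC content. The bars of the genes of higher GC content run from 0.60 in conditioned replicate 2 to -0.60 in conditioned replicate 4.

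Medians were also taken over all tested genes with a mean log2 value above 5. Those at or above the same GC content had 0.32, 0.37, -0.11 and -0.52 in conditioned replicates 1 to 4. In the controls they had 0.15, 0.26, -0.32 and -0.11. Those of lower GC content had -0.10, -0.13, 0.099 and 0.22 in the conditioned samples and -0.060, -0.093, 0.091 and 0.050 in the controls. Over all these genes the controls spread more at higher GC content, unlike in the 39. After a curve of each library's deviation on GC content was subtracted, the number of the 39 above their mean was 17, 28, 11 and 18 in the conditioned and 15, 9, 30 and 22 in the control samples. The log2 difference was then -0.62 for Btg2, -0.64 for Npas4 and -0.51 for Trib1, with an adjusted p of 0.908 in limma for each. Of the 39 genes, 16 were then higher and 23 lower, with a median log2 change of -0.025, while 46.9% of all genes with a GC value were higher and their median was -0.017. The part of GC content in the differences between replicates was not tested.

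The other activity-induced genes, fixed as a list of 23, were all in the table, and 22 passed the minimum; Fosl1 was listed at 0 in every sample. Of the 22, 15 were higher and 7 lower, with a median log2 change of 0.12, and none passed the threshold. The AP-1 gene Fos was 224, 234, 338 and 243 in controls and 338, 464, 320 and 215 after conditioning. Arc, whose product removes AMPA receptors from synapses, was 774, 650.0, 837 and 525 in controls and 982, 1013, 419 and 273 after conditioning, with conditioned replicates 1 and 2 above and 3 and 4 below all controls as in Nptx2 and Vgf. The orphan receptor gene Nr4a3 was 90.5, 96.7, 102 and 80.5 in controls and 134, 210, 159 and 106 after conditioning. Every conditioned sample was above every control (log2 change 0.68, 95% interval 0.19 to 1.16, adjusted p = 0.9998 in limma). Of the 22, Nr4a3 alone had groups without overlap (4.55%), beside 1.92% of all tested genes in either direction.

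Markers of other cell types also differed in direction between the groups. Summed values of the 20 endothelial and mural markers ranged from 1867 to 2536 in controls and from 1299 to 2048 after conditioning, and 19 of the 20 had a lower mean. Astrocyte markers were lower in 13 of 13 (17120 to 23268 and 17230 to 18880), mature oligodendrocyte markers in 12 of 12 (3037 to 12990 and 3165 to 5385), microglial markers in 10 of 12 (2051 to 2602 and 1923 to 2219) and meningeal markers in 10 of 10 (519.7 to 1301 and 265 to 879). Deep-layer neuron markers were higher in 11 of 11 (1276 to 2075 and 1504 to 2794), upper-layer markers lower in 7 of 8 (2466 to 3170 and 2220 to 3236), and 5 of 10 striatal markers were higher (979 to 1538 and 1090.3 to 1269). None of these markers passed the threshold, and the groups' summed ranges overlapped for each list. Of the single markers only Gja1 (astrocytes) had groups without overlap, at 1085 to 1433 in controls and 909 to 1067 after conditioning. Limma's unadjusted p was under 0.05 for 3 of 20 endothelial and mural, 2 of 13 astrocyte, 3 of 11 deep-layer and 2 of 10 striatal markers. The other lists had none, and the share over all tested genes was 2.7%. In whole tissue, fewer cells of a type and less RNA per cell cannot be told apart, and the part of these markers in the values of Klf2, Klf4, Cyr61 or Btg2 was not tested.

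Recovered gene reads lay between 1992452 and 3565356 per sample, and a two-sided exact permutation test of these totals between the groups gave p = 0.857. Per GENCODE vM21, exons of Csrnp1, Plk3, Pim1 and Tiparp overlap those of a gene on the opposite strand, so their counts may include reads of that gene.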

How the data were processed

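Total RNA of 8 cortex samples was sequenced. The authors deposited 1 table named FPKM, but its values are a signal without length correction: reads per gene over a sample-specific factor. After division by each sample's smallest step, 100% of nonzero values came out whole (within 0.01 of a read). Per the submitters' processing notes, TopHat and HTSeq were used, no version being named, and the build was hg19, which is human. Annotation and scaling: not given in the sources used here.

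Groups were taken from sample titles. Values were analysed as log2(value + 1). Genes with a mean of at least 1 (14704) were fitted in limma 3.58.1 under R 4.3.3 (two-sided, eBayes with trend). P-values were adjusted by Benjamini-Hochberg over all tested genes, at a threshold of 0.05. Dividing by the step gave whole reads for edgeR 4.0.16 (quasi-likelihood) and DESeq2 1.42.0. The scripts were tested on simulated data. The replicate number was a block in an alternative fit. Over 9794 genes, deviations of same-numbered samples correlated at 0.51, 0.52, 0.25 and 0.23 for numbers 1 to 4. Differently numbered samples did so as strongly (control 3 with conditioned 4 at 0.74, 2 with 1 at 0.63, 1 with 2 at 0.50, 4 with 3 at 0.34), and numbers 1 and 2 ran against 3 and 4 (-0.68 to -0.26), so a shared number is not shown to tie samples.

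The samples of a group are biological replicates per the series' design text. The genes, marker lists and tests were chosen with earlier results of these data known. Values of every sample are given for the 14 genes with the smallest p, 15 genes fixed by name and, added after their values were seen, Maff and Arl4d, which have a CRE. The other genes are given by mean and SD. Npas4, Btg2, Srf, Pcsk1, Inhba, Plk2, Rgs2 and Sik1 belonged to both the 14 and the 15. GC content and length came from the longest GENCODE vM21 transcript, found for all 39 genes (1 by a newer symbol). GC correction used a lowess curve (span 0.3) and was chosen after seeing the data.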

Additional observations from a re-analysis of the deposited data

Results flagged for a closer look

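Errfi1 in conditioned replicate 4 stood apart from the rest of its group, at 279 against 213 to 220.0 in the other 3 conditioned samples. The gap was 0.876 of the range of the group on the log2 scale, above Dixon's 95% limit for 4 samples. It was the 1 such case among the 78 groups of 4 samples screened (39 genes in each of 2 groups), where chance gives about 1 in 20.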

How the results depend on the processing

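No setting put any of the 39 genes past the threshold. All genes past it numbered 0 with all 8 samples, and 0 to 1 with each sample left out in turn (1 without conditioned replicate 4, and it was none of the 39). Of the 39 genes, 15 to 28 were higher with a sample left out (15 without conditioned replicate 2, 28 without conditioned replicate 3), and 27 with array weights, where the median log2 change was 0.11. The replicate block changed no call. Among the alternatives counted next, the block and a changed minimum (none, or a mean of 10) cannot alter a gene's log2 change in limma. Over the 21 alternatives, 17 genes kept their direction, though for 15 of them, all but Btg2 and Trib1, leaving out 1 sample moved the log2 change by over 1.5 times. Their log2 ranges were -0.69 to -0.46 for Btg2, -0.62 to -0.25 for Trib1, -0.82 to -0.20 for Npas4, -1.08 to -0.072 for Ier2, -0.20 to -0.0088 for Crem, 0.0077 to 0.33 for Klf10, 0.0080 to 0.58 for Maff, 0.040 to 0.50 for Srf, 0.035 to 0.16 for Plk2, 0.24 to 0.91 for Plk3, 0.092 to 0.50 for Sik1, 0.055 to 0.24 for Rgs2, 0.036 to 0.30 for Errfi1, 0.28 to 0.72 for Inhba, 0.0095 to 0.12 for Scg2, 0.033 to 0.26 for Pcsk1 and 0.023 to 0.57 for Gadd45b. The other 22 changed sign at least once; the cause was not tested. Reversed log2 changes were, with median-of-ratios scaling, Rasl11a -0.0085 and Vgf -0.0013; with quantile normalization, Vgf -0.0050 and Cyr61 0.026; with array weights, Klf2 0.061, Csrnp1 0.063, Nfil3 0.010, Rgs4 0.032, Arl4d 0.11, Cyr61 0.31 and Tiparp 0.056. In edgeR they were Atf3 0.11 and Rasl11a -0.013 (0.12 and -0.0091 with no filter), in DESeq2 Atf3 0.13 and Rasl11a -0.017, and with GC correction, with or without the replicate block, Rasl11a -0.025, Vgf -0.014, Amigo3 -0.012 and Midn -0.0075. Leaving out each sample in turn gave log2 ranges of -0.10 to 0.094 for Ier5, -0.64 to 0.036 for Pim1, -0.18 to 0.049 for Spry4, -0.18 to 0.28 for Vgf, -0.35 to 0.34 for Amigo3, -0.69 to 0.23 for Atf3, -0.18 to 0.18 for Rasl11a, -0.36 to 0.32 for Cyr61, -0.14 to 0.31 for Ptgs2, -0.015 to 0.22 for Fbxo33, -0.44 to 0.21 for Klf2, -0.45 to 0.025 for Klf4, -0.064 to 0.096 for Rgs4, -0.20 to 0.019 for Arl4d, -0.20 to 0.24 for Tiparp, -0.21 to 0.23 for Midn, -0.16 to 0.057 for Klf6, -0.012 to 0.54 for Gem, -0.11 to 0.30 for Nptx2, -0.69 to 0.053 for Csrnp1 and -1.02 to 0.18 for Gadd45g. Amigo3, Atf3 and Maff fell under the minimum when it was set at a mean of 10. Low counts limit these genes, Amigo3 having a mean of 4.75 reads per sample.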
